A study of Arabidopsis thaliana with 8 samples.

Results

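The genotype effect described here is the difference between plants of the mutant abh1 and wild-type Columbia plants of Arabidopsis thaliana, averaged over both treatments the plants received. It was estimated from all 8 arrays of the series, 4 of abh1 and 4 of wild type. The groups were abh1 sprayed with 50 µM abscisic acid (ABA), abh1 sprayed with water (mock), wild type sprayed with ABA and wild type sprayed with water, each with 2 arrays that the labels number 1 and 2. All plants were 4 weeks old, leaves were collected 4 h after spraying, and the RNA put on an array was a pool of 3 biological replicates, so that the spread between arrays is one between pools. The labels state no allele for abh1 and name no second mutant line or complemented plant, which limits what abh1 stands for. Where a pair of values is given for a group below, the first is from replicate 1 and the other from replicate 2.

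ABH1 (CBP80) is the larger protein of the cap-binding complex in the nucleus. With its small partner CBP20 it binds the cap at the 5′ end of newly made messenger RNA, and it takes part in splicing and in the processing of microRNA precursors. In Arabidopsis the abh1 mutant is known for stronger responses to ABA, a hormone made under water shortage, in seeds and guard cells. The comparison asks which leaf transcripts differ in the mutant whether or not ABA was given. No probe set named for ABH1 or CBP20 was among those used, so the mutation itself is not checked here from its own transcript.

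The deposited values are MAS5 signals, a linear measure of probe brightness. Arrays numbered 2 had median signals of 180 to 216 and arrays numbered 1 of 131 to 160, so arrays numbered 1 and 2 differed in the same way in both genotypes. The arrays numbered alike deviated together from their group means, with correlations across probe sets of 0.394 to 0.715, and the replicate number was a term of the fit. The pair of wild-type ABA arrays had the lowest correlation within a group (0.859). Replicate 1 of that group had the lowest correlation with any array (0.815, with abh1 mock replicate 2), and replicate 2 was closest to wild-type mock replicate 2 (0.958), so results are given without either where they change. The probe annotation gave a probe set of its own to 2 of 17 leaf markers, LHCB4.1 and RCA. Their summed signal was 34014 to 45519 on abh1 arrays and 32323 to 43273 on wild-type arrays. The annotation did so for 2 of 9 root markers, EXPA7 and EXPA18. Their summed signal was 179 to 309 on abh1 arrays and 158 to 292 on wild-type arrays. The annotation named no probe set for a flower or seed marker, so these could not be looked up, whether or not the arrays hold them. Since leaves hold several cell types, fewer cells of a type and less RNA per cell cannot be told apart in any value below.

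Of 13648 probe sets with enough signal to be tested, 121 (0.887%) differed between abh1 and wild type at an adjusted p under 0.05 in limma. In abh1 53 (0.388%) were higher and 68 (0.498%) were lower. The size of the differences was 1.61-fold to 11.8-fold with a median of 2.28-fold, and 35 of the higher and 52 of the lower ones exceeded 2-fold. For all 121 the abh1 array lay on the same side of the wild-type array in each of the 4 pairs of the same treatment and number, as it did for 2695 (19.7%) of all probe sets tested. The abh1 and wild-type arrays did not overlap for 86 of the 121, against 508 (3.72%) of all probe sets tested. With the same model but no replicate number, 7 probe sets were called. The differences themselves are the same in that fit, so no direction could change. Leaving out wild-type ABA replicate 2 gave 659 calls that held all 121. Leaving out its partner, replicate 1, gave 68 calls, 54 of them among the 121.

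**Figure D1:**
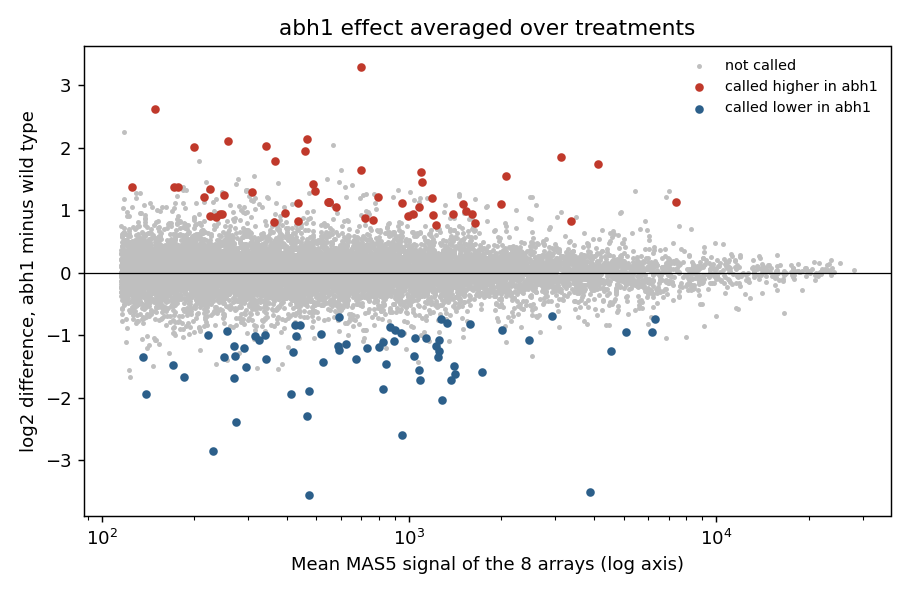
Difference between abh1 and wild type (log2, vertical axis) against the mean MAS5 signal of the 8 arrays (log axis) for the 13648 probe sets tested, with one point per probe set. The 53 called higher and 68 called lower in abh1 are coloured and lie at both low and high signals.

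The annotation gave 1 gene to 66 of the 121, of which 26 were higher and 40 were lower in abh1. The other 55 have no gene name here. The named genes are described first by strength of the test and then by role. A member of a gene list is called measured where it had a probe set of its own among those tested. Medians and counts of a list therefore leave out members whose signal was too low. Folds and log2 differences are of log2(signal + 10), and they understate the change of genes with low signal.

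Among the genes higher in abh1, AT1G13880, which the gene table also lists as an ELM2 domain gene, had the smallest p. Its signal was 1059 and 969 in abh1 ABA and 996 and 1239 in abh1 mock, against 331 and 377 in wild-type ABA and 299 and 323 in wild-type mock. All 4 abh1 arrays were close to each other and far above the wild-type arrays, and abh1 was 3.14-fold higher (log2 1.65 ± 0.14, SE; adjusted p = 0.00317). It was the 1 named gene also called higher without the replicate number, at adjusted p = 0.0153. AT3G48640 had the largest fold of the named genes that were higher. Its signal was 1768 and 449 in abh1 ABA and 2364 and 598 in abh1 mock, against 165 and 90.7 in wild-type ABA and 108 and 53.0 in wild-type mock. Arrays numbered 1 were the higher ones in both genotypes, the genotypes did not overlap, and abh1 was 9.74-fold higher (log2 3.28 ± 0.29, SE; adjusted p = 0.00317).

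AT3G62960 encodes a CC-type glutaredoxin, one of a plant family of small redox proteins that act with TGA transcription factors. It measured 473 and 321 in abh1 ABA and 545 and 327 in abh1 mock, against 146 and 30.9 in wild-type ABA and 138 and 80.9 in wild-type mock. Every abh1 array exceeded every wild-type array, and abh1 was 4.32-fold higher (log2 2.11 ± 0.25, SE; adjusted p = 0.00955). AT2G35750 varied little within a genotype. It measured 625 and 659.9 in abh1 ABA and 553 and 566 in abh1 mock, against 251 and 286 in wild-type ABA and 249 and 303 in wild-type mock, and was 2.17-fold higher (log2 1.12 ± 0.13, SE; adjusted p = 0.0102). AT3G10020 measured 1791 and 2084 in abh1 ABA and 1989 and 2275 in abh1 mock, against 697 and 1218 in wild-type ABA and 777 and 1200.3 in wild-type mock, and was 2.14-fold higher (log2 1.09 ± 0.14, SE; adjusted p = 0.0146). For both genes the lowest abh1 array lay above the highest wild-type array.

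AT2G43590 encodes a chitinase, an enzyme that cuts chitin of fungal cell walls. Its signal was 354 and 278 in abh1 ABA and 371 and 296 in abh1 mock, against 179 and 134 in wild-type ABA and 117 and 74.8 in wild-type mock, and abh1 was 2.54-fold higher (log2 1.34 ± 0.20, SE; adjusted p = 0.0248). The genotypes did not overlap, and the gap was narrower in ABA (log2 0.97) than in mock (log2 1.72), though the difference between treatments was not called. AT1G67800 encodes a protein with a copine-type domain. It measured 412 and 316 in abh1 ABA and 456 and 583 in abh1 mock, against 148 and 151 in wild-type ABA and 261 and 147 in wild-type mock, and was 2.44-fold higher (log2 1.28 ± 0.20, SE; adjusted p = 0.0302). Wild-type mock replicate 1 was the array that stood above the other wild-type arrays.

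CML41 encodes a calmodulin-like calcium sensor. It measured 1532 and 1093 in abh1 ABA and 2939 and 894 in abh1 mock, against 869 and 283 in wild-type ABA and 927 and 207 in wild-type mock, and was 3.05-fold higher (log2 1.61 ± 0.25, SE; adjusted p = 0.0302). Here the genotypes overlapped, since abh1 mock replicate 2 lay below wild-type mock replicate 1, and the call rests on pairs of the same number. AT3G60540 encodes a beta-type subunit of the Sec61 channel, through which new proteins enter the endoplasmic reticulum. It measured 1851 and 845 in abh1 ABA and 1639.6 and 911 in abh1 mock, against 728 and 597 in wild-type ABA and 685 and 349.5 in wild-type mock, and was 2.15-fold higher (log2 1.11 ± 0.17, SE; adjusted p = 0.0302). AT1G61280 measured 182 and 196 in abh1 ABA and 159 and 199 in abh1 mock, against 74.6 and 76.9 in wild-type ABA and 46.3 and 67.4 in wild-type mock. For AT3G45160 the signal was 1799.6 and 2201 in abh1 ABA and 1910.4 and 2379 in abh1 mock, against 899 and 1219 in wild-type ABA and 1159 and 1562 in wild-type mock. For AT1G72060 it was 1236 and 889 in abh1 ABA and 1106 and 734 in abh1 mock, against 618 and 541 in wild-type ABA and 534 and 461 in wild-type mock. None of these 3 overlapped between genotypes, and they were 2.57-fold, 1.73-fold and 1.80-fold higher, with adjusted p of 0.0277, 0.0302 and 0.0302.

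Among genes lower in abh1, AT3G44430 had the smallest p and the largest fold of all named genes that were lower. Its signal was 98.0 and 26.3 in abh1 ABA and 55.5 and 28.2 in abh1 mock, against 459.5 and 263 in wild-type ABA and 495 and 413 in wild-type mock. The highest abh1 array was below the lowest wild-type array, and abh1 was 7.27-fold lower (log2 -2.86 ± 0.26, SE; adjusted p = 0.00317). AT5G48490, a gene for a lipid transfer protein, measured 233 and 313 in abh1 ABA and 189 and 160.0 in abh1 mock, against 2668 and 425 in wild-type ABA and 2285 and 1348 in wild-type mock. It was 6.08-fold lower (log2 -2.60 ± 0.46, SE; adjusted p = 0.0434), and wild-type ABA replicate 2 lay far below the other wild-type arrays but still above every abh1 array.

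AT5G43450 and AT5G43440 are adjacent genes on chromosome 5 that encode oxygenases dependent on 2-oxoglutarate and iron. AT5G43450 measured 251 and 163 in abh1 ABA and 277 and 115 in abh1 mock, against 959.8 and 688 in wild-type ABA and 715 and 625 in wild-type mock, and was 3.72-fold lower (log2 -1.90 ± 0.18, SE; adjusted p = 0.00333). AT5G43440 measured 350.5 and 342 in abh1 ABA and 324 and 401 in abh1 mock, against 743 and 893 in wild-type ABA and 673 and 984 in wild-type mock, and was 2.27-fold lower (log2 -1.18 ± 0.14, SE; adjusted p = 0.00955). Both were lower on all abh1 arrays. Being alike in sequence, the pair may share hybridising RNA, and this was not tested. Another gene of the same enzyme class, AT1G04350, was 1.78-fold lower (log2 -0.83 ± 0.15, SE; adjusted p = 0.0468).

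AT2G03750 encodes a sulfotransferase, which adds sulfate to small molecules. It measured 459 and 863 in abh1 ABA and 643 and 826 in abh1 mock, against 1719.5 and 2028 in wild-type ABA and 2235 and 2491 in wild-type mock, and was 3.07-fold lower (log2 -1.62 ± 0.15, SE; adjusted p = 0.00333). AT1G64360 measured 647 and 294 in abh1 ABA and 737 and 269 in abh1 mock, against 2404 and 1161 in wild-type ABA and 2451 and 707 in wild-type mock, and was 3.31-fold lower (log2 -1.73 ± 0.17, SE; adjusted p = 0.00335). AT1G64360 overlapped between genotypes, with arrays numbered 1 the brighter ones in both, and AT2G03750 did not overlap. AT4G23670 encodes a protein of the major latex protein family. It measured 4062 and 5857 in abh1 ABA and 2846 and 4140.1 in abh1 mock, against 7769 and 10162 in wild-type ABA and 5926 and 8530.0 in wild-type mock, and was 1.94-fold lower (log2 -0.96 ± 0.10, SE; adjusted p = 0.00485), the smallest fold among the 12 lower genes named by strength of the test.

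AT5G62360 encodes an inhibitor of pectin methylesterase, the enzyme that modifies cell wall pectin. It measured 246 and 213 in abh1 ABA and 366 and 587 in abh1 mock, against 1104 and 693 in wild-type ABA and 1916 and 1453 in wild-type mock, and was 3.63-fold lower (log2 -1.86 ± 0.21, SE; adjusted p = 0.00656). Without the replicate number its adjusted p was 0.0394. IAA29 encodes an Aux/IAA protein, a short-lived repressor of auxin responses. It measured 71.2 and 186 in abh1 ABA and 71.8 and 122 in abh1 mock, against 199 and 638 in wild-type ABA and 196 and 667 in wild-type mock, and was 3.24-fold lower (log2 -1.70 ± 0.21, SE; adjusted p = 0.0106). Its signal on arrays numbered 2 exceeded that on arrays numbered 1 in each group, and the genotypes did not overlap. AT1G43590 measured 122 and 64.5 in abh1 ABA and 57.7 and 61.5 in abh1 mock, against 771 and 452 in wild-type ABA and 207 and 459 in wild-type mock, and was 5.27-fold lower (log2 -2.40 ± 0.31, SE; adjusted p = 0.0144).

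COR15B encodes a chloroplast protein that protects membranes when cells freeze or dry. It measured 4422 and 2778 in abh1 ABA and 2590.5 and 1209 in abh1 mock, against 10670.1 and 4793 in wild-type ABA and 5690.4 and 4314 in wild-type mock, and was 2.38-fold lower (log2 -1.25 ± 0.16, SE; adjusted p = 0.0144). The genotypes overlapped, since abh1 ABA replicate 1 lay above wild-type mock replicate 2. AT2G38790 measured 279.8 and 305 in abh1 ABA and 324 and 193 in abh1 mock, against 997 and 930.2 in wild-type ABA and 685 and 487 in wild-type mock. For AT3G01920 the signal was 887 and 775 in abh1 ABA and 1026 and 545 in abh1 mock, against 2139 and 1478 in wild-type ABA and 1741 and 1461 in wild-type mock. Both were lower on every abh1 array, by 2.70-fold (adjusted p = 0.0144) and 2.12-fold (adjusted p = 0.0188).

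**Figure D2:**
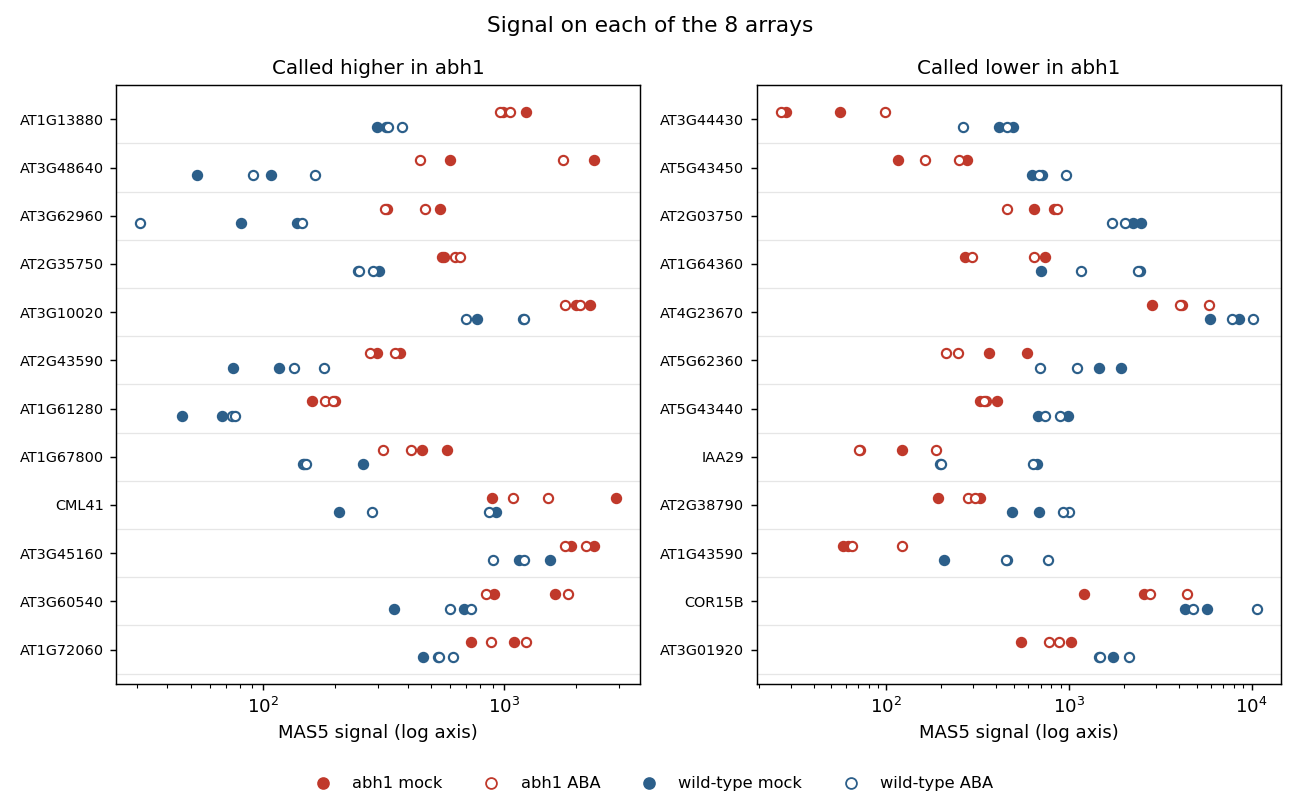
MAS5 signal (log axis) on each of the 8 arrays for the 12 named genes called higher and the 12 called lower in abh1 with the smallest p, abh1 above wild type in each row and mock filled, ABA open. For AT1G13880 the 4 abh1 arrays lie between 969 and 1239 and the wild-type arrays between 299 and 377, while for CML41, AT1G64360 and COR15B the genotypes overlap.

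Among probe sets with no gene name, 254551_at had the smallest p of all probe sets tested. It measured 921 and 498 in abh1 ABA and 589.9 and 523 in abh1 mock, against 7934 and 6257 in wild-type ABA and 7795 and 6619 in wild-type mock, and was 11.4-fold lower (log2 -3.51 ± 0.15, SE; adjusted p = 4.33e-05). This difference was also called without the replicate number (adjusted p = 0.000962), and it was the 1 call made when arrays numbered 2 were fitted alone. The unnamed 252911_at measured 125 and 219.5 in abh1 ABA and 126 and 184 in abh1 mock, against 413 and 659 in wild-type ABA and 651 and 928 in wild-type mock, and was 3.83-fold lower (log2 -1.94 ± 0.18, SE; adjusted p = 0.00317). On the higher side, 263593_at measured 598 and 542 in abh1 ABA and 575 and 574 in abh1 mock, against 145 and 164 in wild-type ABA and 174 and 153 in wild-type mock. For 266385_at the signal was 5624 and 3206 in abh1 ABA and 6188 and 4417 in abh1 mock, against 1746 and 954 in wild-type ABA and 2042 and 842 in wild-type mock. They were 3.45-fold and 3.60-fold higher, each at adjusted p = 0.00305, and neither overlapped between genotypes. Over all 55 unnamed probe sets, 27 were 1.70-fold to 6.16-fold higher and 28 were 1.68-fold to 11.8-fold lower, and the genotypes did not overlap for 35.

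The remaining called genes are grouped by known role, a grouping made after their values were seen. No list or number tested stands behind these groups, and nothing is read from them about a class of genes. AT3G47540, a chitinase gene, was 1.84-fold higher and AT5G39670, which encodes an EF-hand calcium-binding protein, was 2.72-fold higher, at 2089 and 866 in abh1 ABA and 2527 and 1142 in abh1 mock, against 614 and 645 in wild-type ABA and 543 and 426 in wild-type mock. The genotypes did not overlap for either gene. Also higher were 3 single genes for RING-type proteins, a class that holds many ubiquitin ligases, RHF1A by 2.06-fold, AT2G42360 by 2.58-fold and AT5G41400 by 1.87-fold. AT1G55210, a dirigent protein gene, was 1.92-fold higher and AT1G62290, an aspartyl protease gene, was higher by log2 1.14 ± 0.19 (SE). AT3G46210 encodes a subunit of the exosome, the complex that degrades and trims RNA from its 3′ end. It measured 255 and 251 in abh1 ABA and 358 and 374 in abh1 mock, against 133 and 154 in wild-type ABA and 189.7 and 165 in wild-type mock, and was 1.86-fold higher (log2 0.89 ± 0.15, SE; adjusted p = 0.042), with no overlap between genotypes.

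Single genes with roles in the wall, the leaf surface and metabolism were called lower. EXLA1, an expansin-like gene of cell wall loosening, measured 895 and 660.0 in abh1 ABA and 284 and 90.9 in abh1 mock, against 2352 and 1363 in wild-type ABA and 522 and 586 in wild-type mock. It was 2.75-fold lower (log2 -1.46 ± 0.25, SE; adjusted p = 0.043), and its ABA arrays were above its mock arrays in both genotypes. AT4G13840 (CER26), which takes part in making leaf wax, was 2.07-fold lower, the malate channel-type gene AT1G68600 2.51-fold lower and the copper amine oxidase gene AT3G43670 2.31-fold lower. Among metabolic enzymes, CYP71B24, a cytochrome P450, measured 72.8 and 78.3 in abh1 ABA and 99.5 and 84.5 in abh1 mock, against 169 and 291 in wild-type ABA and 242 and 327 in wild-type mock, and was 2.79-fold lower (log2 -1.48 ± 0.21, SE; adjusted p = 0.0204). UGT85A5, which encodes a glucosyltransferase, was 1.79-fold lower. LigB, a dioxygenase gene, was 2.41-fold lower, the strictosidine synthase-like gene AT3G57020 2.55-fold lower and the methyltransferase gene AT3G61210 2.13-fold lower. Adjusted p for these enzyme, wall, defence and RING-type genes lay between 0.0204 and 0.0468.

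Both called genes for assembly of chloroplast complexes, LPA19 and CRR41, were lower. LPA19 encodes a factor that assembles photosystem II, the complex that splits water. It measured 342 and 461 in abh1 ABA and 495 and 409.8 in abh1 mock, against 1023 and 559 in wild-type ABA and 1358 and 1217 in wild-type mock, and was 2.30-fold lower (log2 -1.20 ± 0.22, SE; adjusted p = 0.0464). CRR41 encodes an assembly factor of the chloroplast NADH dehydrogenase-like complex, and measured 441 and 431 in abh1 ABA and 502 and 417 in abh1 mock, against 709 and 642 in wild-type ABA and 818 and 788 in wild-type mock. It was 1.63-fold lower (log2 -0.71 ± 0.13, SE; adjusted p = 0.0468), and neither gene overlapped between genotypes. The list of photosystem assembly and chlororespiration genes was written after values were seen. Of its 11 measured members 0 were called higher and 2 lower, beside 0.498% of all probe sets called lower, and 11 of 11 lay below 0, with a median log2 difference of -0.18 against 0.02 over all probe sets tested. After quantile normalization 0 were called and 10 of 11 lay below 0, and 0 were also called with 4 group means, without a filter and without an intensity trend. With 1 array left out the median ranged from -0.33 to -0.17 and at least 9 lay below 0. With the ABA arrays alone the median was -0.05. The calls of LPA19 and CRR41 were lost with any 1 array left out other than wild-type ABA 2 or abh1 ABA 2. Leaving out those arrays in turn gave 2 and 1 members called lower. Both calls were also lost with no replicate number in the fit and with the ABA arrays alone. CRR21, the member with the next smallest p, had a log2 difference of -0.59 ± 0.19 (SE; adjusted p = 0.22).

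The 66 measured genes of the chloroplast genome, a list also written after values were seen, had no member called in the main fit. Their median log2 difference was -0.49 and 62 of 66 lay below 0, while over all probe sets tested the median was 0.02 and 46.3% lay below 0. The median signal of the 66 was 1272 and 4050.2 on abh1 ABA arrays and 765 and 3548 on abh1 mock arrays, against 1676 and 4467 on wild-type ABA arrays and 2041 and 4946 on wild-type mock arrays. The difference was thus large in 1 pair: the median log2 difference was -1.24 in mock replicate 1 and -0.33, -0.19 and -0.01 in mock replicate 2, ABA replicate 1 and ABA replicate 2. With the ABA arrays alone 0 of the 66 were called, in a fit that called 3 of all 13648 probe sets lower. With the mock arrays alone 48 were called lower, in a fit that called 623 of the 13648 lower. Without wild-type ABA replicate 2, 9 of the 66 were called lower, in a fit that called 253 of the 13648 lower. Without wild-type ABA replicate 1, 1 was called lower. There was also 1 with 4 group means, after median centring, after quantile normalization and with a filter at the 60th percentile. Without abh1 mock replicate 1 the median was -0.16, and without wild-type mock replicate 1 it was -0.26. Wild-type mock replicate 1 also had the highest 3′ to 5′ signal ratio of the actin control, 6.99, next to 4.41 on abh1 mock replicate 1 and 2.16 to 2.97 on the other arrays. The other control ratios did not stand out in this way, since wild-type mock replicate 1 had the lowest GAPDH ratio (1.04, against a highest of 1.73) and a ubiquitin ratio of 2.05 in a range of 2.01 to 2.94. The part of RNA quality in the result was not tested. The member with the smallest p was atpA, which encodes a subunit of the chloroplast ATP synthase. Its signal was 1276 and 2002 in abh1 ABA and 942 and 1345 in abh1 mock, against 1708 and 4624 in wild-type ABA and 3815 and 4354 in wild-type mock. Its log2 difference was -1.33 ± 0.26 (SE) and its adjusted p 0.0579. The gene atpI, for another ATP synthase subunit, had a 2.00-fold lower value (adjusted p = 0.109), and psbI, for a photosystem II subunit, had log2 -0.52 ± 0.13 (adjusted p = 0.128). The nuclear light harvesting and photosystem genes had 0 of 7 called and a median of 0.02. LHCB4.3, an antenna protein gene, had log2 0.37 ± 0.12 (adjusted p = 0.233).

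**Figure D3:**
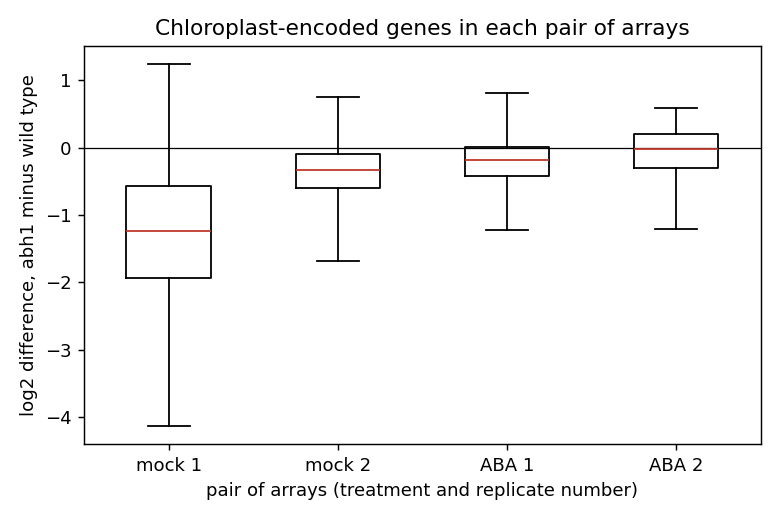
log2 difference between abh1 and wild type in each of the 4 pairs of arrays for the 66 measured chloroplast-encoded genes, with boxes from the 25th to the 75th percentile, the median as a line and whiskers to the lowest and highest gene. The median is -1.24 in mock replicate 1 and -0.01 in ABA replicate 2.

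A further 17 named genes were called, 2 higher and 15 lower, with adjusted p of 0.0215 to 0.0491, and the genotypes did not overlap for 13. The higher ones were AT3G45210, by 1.91-fold, and AT4G29020, by 1.90-fold. The lower ones differed by 1.61-fold to 3.84-fold. AT5G35480 led them with 52.0 and 42.0 in abh1 ABA and 53.2 and 50.2 in abh1 mock, against 211 and 265 in wild-type ABA and 124 and 318 in wild-type mock. All abh1 arrays lay below all wild-type arrays, and abh1 was 3.84-fold lower (log2 -1.94 ± 0.29, SE; adjusted p = 0.0257). The others were AT2G43535, AT4G02540, AT3G01660, AT5G44520, AT3G19030, AT2G01870, AT1G31920, AT1G24610 (a gene of the SET domain methyltransferase class), AT2G01400, AT4G09890, AT5G42765, AT2G17972, AT1G73470 and AT5G48790.

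The effectors of ABA and cold responses, which are dehydrins and proteins that protect drying cells, had 7 measured members of 19. Of these 0 were called higher and 1, COR15B, was called lower, beside 0.498% of all probe sets called lower. Below 0 lay 6 of 7 (5 of 7 after quantile normalization), as did 46.3% of all probe sets. Their median was -0.43, against 0.02 over all probe sets tested. The median was -0.21 with wild-type ABA 1 left out, -0.24 with wild-type mock 2, -0.26 with abh1 ABA 1 and -0.26 with abh1 ABA 2, and the call of COR15B was lost with either abh1 mock array, wild-type mock 1 or abh1 ABA 1 left out. COR15A, the close neighbour and relative of COR15B, had log2 -0.58 ± 0.22 (SE; adjusted p = 0.314), with -0.12 in ABA and -1.03 in mock. AT2G23120, which encodes a late embryogenesis abundant protein, had log2 -0.43 ± 0.14 (adjusted p = 0.245). COR15A and COR15B are similar neighbouring genes whose probe sets may bind RNA of both, which was not tested.

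Beside each list that follows, 0.498% of all probe sets tested were called lower, 46.3% lay below 0 and their median was 0.02. The auxin response list had 4 measured members, of 12 with a probe set, with 0 called higher and 1, IAA29, called lower. That call was lost with either wild-type mock array left out. The median of -0.23 had no stable sign: it was 0.035 with wild-type ABA 2 left out, 0.01 with abh1 ABA 2 left out and -0.65 with abh1 mock 1 left out, and -0.95 in ABA and 0.17 in mock. GH3.3, which conjugates auxin to amino acids, had log2 -0.38 ± 0.75 (SE; adjusted p = 0.906). Its difference was -2.04 in ABA and 1.29 in mock. CYP71B24 was the 1 call among 11 measured cytochrome P450 genes (median -0.18, but 0.04 with wild-type ABA 2 left out and -0.04 with abh1 ABA 2 left out). That list had no call with any mock array or abh1 ABA 1 left out, or without a filter. There CYP71B26 had log2 -0.44 ± 0.13 and CYP71B6 log2 0.37 ± 0.15, with adjusted p of 0.204 and 0.329. UGT85A5 was the 1 call among 26 measured genes, of 50 with a probe set, of the UDP-glycosyltransferase list. That call was lost with any 1 array left out other than wild-type ABA 2, with 4 group means and without a filter. The median of that list was -0.16, and -0.10 with wild-type mock 1 left out, and 18 of 26 lay below 0. The list does not hold AT4G14090, an anthocyanin glucosyltransferase gene that was called higher and is described below. UGT76C2, which glucosylates cytokinins, had log2 -0.95 ± 0.26 (adjusted p = 0.162), and UGT74B1, which acts in glucosinolate synthesis, had log2 -0.51 ± 0.15 (adjusted p = 0.198). EXLA1 was the 1 call among 11 measured expansin and xyloglucan genes, of 27 with a probe set. That call was lost with any 1 array left out other than wild-type ABA 2. It was also lost after quantile normalization, with 4 group means, without a filter and without an intensity trend. Their median was -0.17, but -0.02 without abh1 mock replicate 1, -0.06 without wild-type mock replicate 2, -0.11 without wild-type mock replicate 1, and 0.22 in ABA and -0.33 in mock. EXPA4 had log2 0.38 ± 0.16 (adjusted p = 0.362).

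CML41 was the 1 call among 5 calmodulin-like and calcium kinase genes, beside 0.388% of all probe sets called higher. That call was lost in 6 of the 8 fits that left out 1 array. The median was 0.30, but 0.10, 0.16 and 0.48 with wild-type mock 1, wild-type ABA 2 and wild-type mock 2 left out in turn. In that list CML42 had log2 0.53 ± 0.16 and CML38 log2 -1.47 ± 0.43, values of opposite sign, with adjusted p of 0.198 and 0.191. All 5 measured WRKY factors, which regulate defence and senescence genes, lay above 0, as did 53.7% of all probe sets, with a median of 0.28 and 0 called. The median was 0.15 with wild-type ABA 1 left out, 0.16 with abh1 ABA 1 left out and 0.03 on arrays numbered 2, and in the pair of ABA arrays numbered 2 it was -0.40 with 4 of 5 below 0. WRKY47 had log2 0.41 ± 0.16 (adjusted p = 0.323). No member was called among 12 sugar transporters (median 0.00; SWEET11, a sucrose exporter of leaves, log2 0.47 ± 0.12, adjusted p = 0.135), 10 autophagy genes (median 0.07), 7 glutathione transferases (median -0.09; GSTU16 log2 -0.48 ± 0.14, adjusted p = 0.191) or 5 basic helix-loop-helix factors (median 0.06; bHLH115 log2 0.45 ± 0.14, adjusted p = 0.198). The cap-binding and microRNA processing list had 3 measured members of 20, with 0 called, a median of 0.01 and a range of -0.13 to 0.09. The flowering time list had 3 measured members of 15, with 0 called and a range of -0.31 to 0.20.

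CC-type glutaredoxins, a list written after values were seen, had 13 measured members, of which 3 were called higher, beside 0.388% of all probe sets, and 0 lower. Their median was 0.47, and 10 of 13 lay above 0, as did 53.7% of all probe sets. AT2G47880, chosen for mention after its values were seen, lay below 0 at log2 -0.73 ± 0.20 (SE; adjusted p = 0.171), and its abh1 arrays were all below its wild-type arrays. With 1 array left out 0 to 5 members were called higher. After quantile normalization, with 4 group means and without a filter 1 was called higher. With a filter at the 60th percentile (5 members kept), without the replicate number and with the ABA arrays alone 0 were. Beside AT3G62960, the members called in the main fit were AT4G15690 and AT4G15700, which lie next to each other on chromosome 4. AT4G15700 measured 387 and 233 in abh1 ABA and 417 and 155 in abh1 mock, against 196 and 61.3 in wild-type ABA and 205 and 63.5 in wild-type mock, and was 2.32-fold higher (log2 1.22 ± 0.20, SE; adjusted p = 0.0356). AT4G15690 measured 362 and 37.7 in abh1 ABA and 502 and 106 in abh1 mock, against 106 and 4.87 in wild-type ABA and 253 and 40.9 in wild-type mock, and was 2.59-fold higher (log2 1.38 ± 0.25, SE; adjusted p = 0.0494). Its genotypes overlapped, its signal of 4.87 lay under the 10th percentile of that array (11.5), and without the replicate number its adjusted p was 1. Arrays numbered 1 carried most of the signal in both genotypes. The pair is very similar in sequence, and whether their probe sets bind RNA of both was not tested. The list of glutaredoxins and thioredoxins by family name had 5 measured members with 0 called; in it GRX480, which is induced by salicylate and also of the CC type, had log2 1.19 ± 0.34 (adjusted p = 0.179).

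Anthocyanin synthesis, the pathway of red leaf pigments, had 4 measured members in a list also written after values were seen, and 2 were called higher, beside 0.388% of all probe sets. The other 2 measured members, flavonoid glycosyltransferases, had log2 differences of -0.04 and 0.06. With 1 array left out 0 to 2 members were called higher, with 0 where any mock array or a replicate 1 array of either ABA group was out. With 4 group means, without a filter on signal and with the ABA arrays alone 0 were also called. DFR, which encodes dihydroflavonol reductase, measured 168 and 1082 in abh1 ABA and 214 and 1412 in abh1 mock, against 64.2 and 567 in wild-type ABA and 100.5 and 338 in wild-type mock, and was 2.48-fold higher (log2 1.31 ± 0.22, SE; adjusted p = 0.0405). AT4G14090, which encodes an anthocyanin glucosyltransferase, measured 86.3 and 471 in abh1 ABA and 27.4 and 692 in abh1 mock, against 6.76 and 227 in wild-type ABA and 1.96 and 89.1 in wild-type mock, and was 4.01-fold higher (log2 2.00 ± 0.34, SE; adjusted p = 0.0405). In both genotypes the arrays numbered 2 were several times brighter than those numbered 1, the genotypes overlapped, and the wild-type signals of AT4G14090 on arrays numbered 1 were under the 10th percentile of their arrays (7.94 in ABA and 7.16 in mock). Without the replicate number the adjusted p was 1 for both genes.

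**Figure D4:**
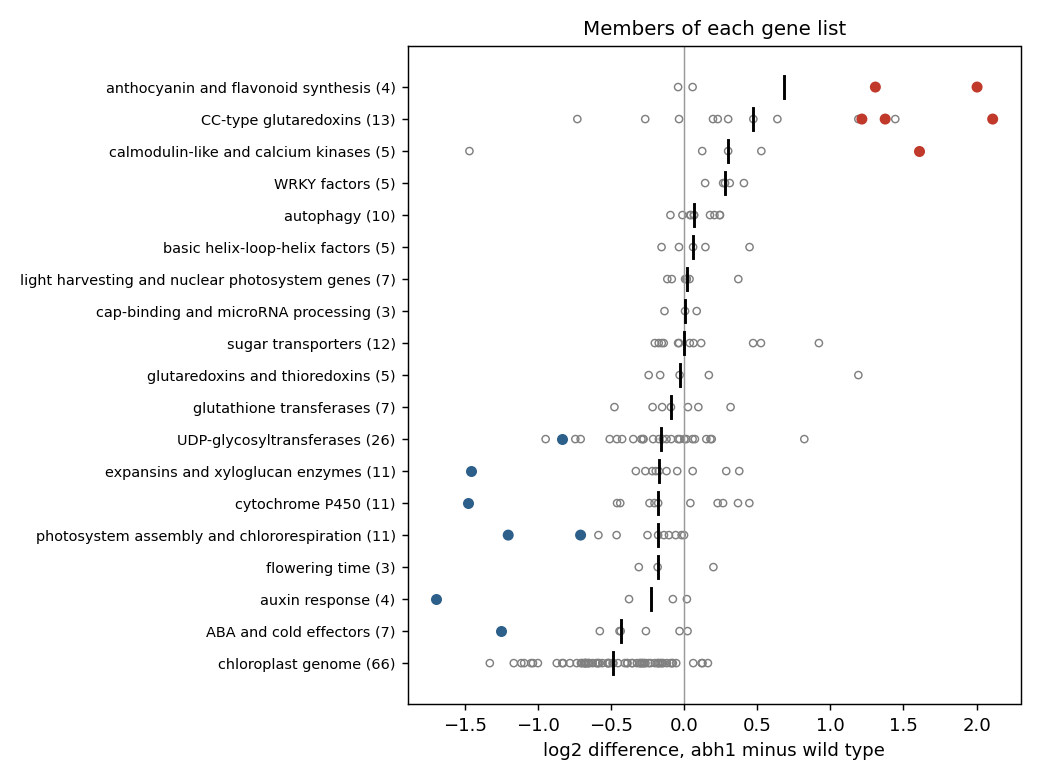
log2 difference between abh1 and wild type, averaged over treatments, for each measured member of the gene lists with 3 or more members (number in brackets). Filled points are called members, open points are not called, and the vertical bar is the list's median, from 0.68 for anthocyanin and flavonoid synthesis to -0.49 for the chloroplast genome.

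The test of a difference between treatments called 0 of 13648 probe sets (0%). In limma 249 had an unadjusted p under 0.05, with a smallest adjusted p of 0.999954. All 121 called probe sets had the same sign in mock and in ABA, which follows from their same sign in all 4 pairs. The fit that called them favours probe sets alike in both treatments, since a difference between treatments adds to its residual spread. Their shared sign is therefore no test of whether the treatments differ. The size of the abh1 difference was larger in mock for 84 of the 121, with a median log2 size of 1.08 in ABA and 1.28 in mock, and 6 of the 121 had an unadjusted interaction p under 0.05. The share larger in mock among all probe sets tested was not taken, so nothing is read from the 84. Fitted alone, the 4 ABA arrays gave 4 calls and the 4 mock arrays gave 1323. These fits have 1 residual degree of freedom each and the treatments were not shown to differ. The gene with the smallest interaction p was AT3G53980, a gene of the lipid transfer protein class. Its signal was 749 and 865 in abh1 ABA and 796 and 1140.3 in abh1 mock, against 499 and 458 in wild-type ABA and 139.9 and 169 in wild-type mock, with a log2 difference of 0.74 in ABA and 2.56 in mock. Its genotype effect over both was log2 1.65 ± 0.34 (SE; adjusted p = 0.071). AT1G60590, a polygalacturonase-type gene of pectin breakdown, had 0.17 in ABA and -1.66 in mock, and LUL1, a ubiquitin ligase gene, had 0.43 in ABA and -0.79 in mock. These are values of single genes that did not pass the test.

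**Figure D5:**
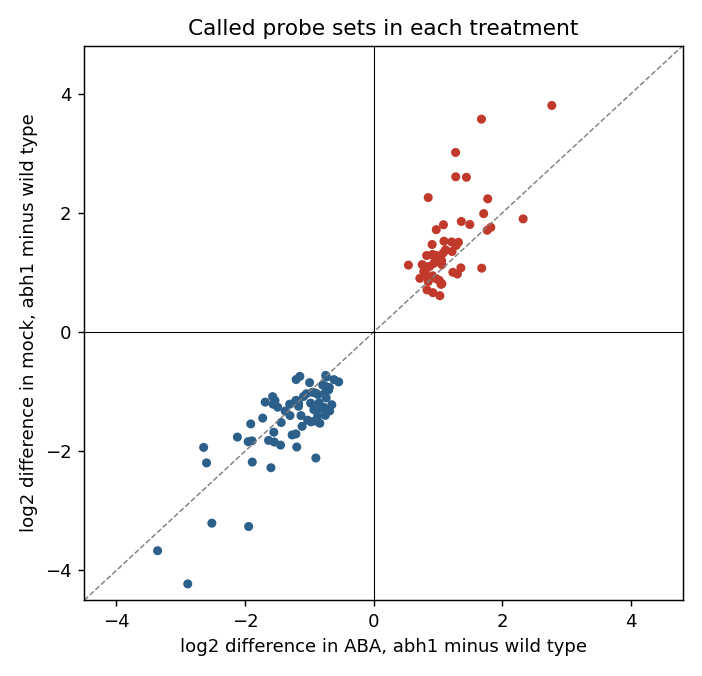
log2 difference between abh1 and wild type in mock (vertical axis) against that in ABA (horizontal axis) for the 121 called probe sets, red where called higher and blue where called lower in abh1, with a dashed line of equal difference. All 121 have the same sign in both treatments, which follows from their same sign in all 4 pairs, and 84 differ more in mock.

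The called genes lay on all 5 nuclear chromosomes. They numbered 16 of 1899 genes tested on chromosome 1, 10 of 1050 on chromosome 2, 18 of 1487 on chromosome 3, 11 of 1061 on chromosome 4 and 11 of 1746 on chromosome 5, and 0 of 66 on the chloroplast genome. Apart from the adjacent pairs already named, 3 pairs of called genes had 4 or 5 genes between them. AT3G45160 and AT3G45210 were both higher. AT2G43535 was lower while AT2G43590 was higher, and AT5G42765 was lower while DFR was higher.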

How the data were processed

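RNA of 8 samples was hybridised to 1-colour Affymetrix arrays, 1 array per sample. The authors deposited MAS5 signal intensity, a linear value per probe set, per the submitters' processing notes, whose settings are not stated in the labels. Each array's 2% trimmed mean was near 500.04, so no further scaling was applied. From 22810 probe sets, 64 controls were left out, and those with a mean signal at or above the 40th percentile (115, in signal units) were kept, 13648 in all. limma 3.58.1 (R 4.3.3) fitted linear models to log2(signal + 10) with genotype, treatment and replicate number as terms, leaving 4 residual degrees of freedom, with eBayes and an intensity trend. Two-sided p-values were adjusted over the 13648 probe sets (Benjamini-Hochberg), and an adjusted p under 0.05 was a call. The interaction was fitted with 4 group means and the replicate number, with 3 residual degrees of freedom.

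Groups came from the sample labels. The labels number the replicates and state no pairing; the deviations of same-numbered arrays correlated at 0.394 to 0.715 (median 0.572), above the level of 0.1 taken to show pairing. The labels do not say that arrays of a group came from separate cultures, beyond the pools of 3 biological replicates, so p-values reflect only how far these arrays spread, possibly for technical reasons, and precision is limited by there being 8. Genes came from a probe annotation, with 1 gene for 13513 probe sets without controls, several for 503 and none listed for 8730, and symbols and gene order from a RefSeq gene table of another source than the arrays, so no coordinates are given.

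Named genes were the 12 higher and 12 lower called genes with the smallest p and the same direction in all 4 pairs, up to 3 members by p of each list with 3 or more measured members, 2 unnamed probe sets in each direction and up to 3 genes by interaction p. The other called genes, and members of lists written after values were seen, were added. Some list members chosen by that rule are given only through their list's range. The members and the lists were chosen with earlier results of these data known. On simulated data with 200 changed probe sets among 13648, the fit of the genotype effect found 53 of 100 with a log2 size of 1 and 91 of 100 with a size of 2, beside 8 false calls. The simulated noise followed the fitted model and was independent between probe sets, with no stray array. These counts therefore check the fit and do not give its error rates on the real arrays. Alternatives are described in the closing section. Promoter sequences were not used here.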

Additional observations from a re-analysis of the deposited data

Results flagged for a closer look

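Over 190 sets of 4 arrays, 1 genotype of a named gene each, 1 array lay far from the other 3 in 9 by Dixon's criterion. Chance meets it in about 1 in 20 sets of 4 independent values from 1 normal distribution. Each set here mixes both treatments and both replicate numbers, so the 9 cannot be judged against that rate. Among wild-type arrays, AT1G67800 read 261 on mock replicate 1 and 147 to 151 on the others, AT5G44520 read 810.2 on ABA replicate 2 and 1214 to 1292 on the others, AT1G55210 read 765 on mock replicate 2 and 1180.0 to 1244 on the others, AT3G47540 read 398 on ABA replicate 1 and 527 to 541 on the others, and AT2G47880 read 576 on mock replicate 1 and 272 to 301 on the others. Among abh1 arrays, AT1G43590 read 122 on ABA replicate 1 and 57.7 to 64.5 on the others, CRR21 read 116 on ABA replicate 1 and 180.2 to 189.8 on the others, AT4G13840 read 542 on ABA replicate 1 and 696 to 731 on the others, and AT2G42360 read 441 on mock replicate 1 and 178 to 207 on the others. Of these 9 genes, 7 were called, and CRR21 and AT2G47880 were not. No gene's effect was called as different between treatments.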

How the results depend on the processing

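All 121 called probe sets kept their direction under every alternative (96 of the 96 kept under a filter at the 60th percentile), while their number depended on the fit. For many alternatives the direction could not change. The replicate block, 4 group means, the trend and the filter leave each difference as it was. All 121 had the same sign in all 4 pairs, which fixes it in fits of 1 treatment or 1 replicate number. Against 121 calls (53 higher, 68 lower), 7 were called with no replicate block (2 higher, 5 lower). With the replicate block kept and 4 group means, which leaves 1 residual degree of freedom fewer, 70 were called (31 and 39). Without a filter on signal 51 were called (19 and 32) among 22746 tested. The ABA arrays alone gave 4 (1 and 3), the mock arrays alone 1323 (700 and 623), the arrays numbered 1 alone 611 (410 and 201) and the arrays numbered 2 alone 1 (0 and 1), where the last has 718 at an unadjusted p under 0.05 in limma. Leaving out 1 array gave 20 to 659 calls, 6 to 406 of them higher and 14 to 253 lower; the counts were 659 with wild-type ABA 2 left out, 68 with wild-type ABA 1, 23 with wild-type mock 1, 28 with wild-type mock 2, 76 with abh1 ABA 2, 28 with abh1 ABA 1, 27 with abh1 mock 1 and 20 with abh1 mock 2. A fit without wild-type ABA replicate 2 gave 61.6% of calls higher, against 43.8% with it, and the cause was not tested. Offsets of 1 and 50, the 60th percentile, median centring, quantile normalization and eBayes without a trend gave 88 to 151 calls, within 1.5 times of 121. The difference between treatments had 0 calls in each setting tried, with 38 to 1900 at an unadjusted p under 0.05.

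The 70 called genes and probe sets named kept their direction in 1455 of 1455 values and stayed past the threshold in 776. As above, the direction could not change in many of these values. GH3.3, not called, reversed to log2 1.29 in mock and 0.77 on arrays numbered 1, and with 1 array left out it ranged from -1.03 to 0.54, above 0 where wild-type ABA 2 (0.54) or abh1 ABA 2 (0.38) was out. AT1G60590 reversed to 0.17 in ABA. LUL1 reversed to 0.43 in ABA and ranged from -0.36 to 0.0039 with 1 array left out. The promoter motif comparison was not run.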
